A study of Mus musculus with 6 samples.

Results

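The axon guidance ligands and receptors of the late fetal mouse small intestine were examined as a set of 44 genes: 20 semaphorins, 9 plexins, 2 neuropilins, 2 netrins, 6 netrin receptors, 3 Slits and 2 Robo receptors. Members were chosen by gene symbol alone, as every probe set annotated to semaphorin classes 3 to 7, plexins A to D, Nrp1, Nrp2, Ntn1, Ntn4, Dcc, Neo1, Unc5a to Unc5d, Slit1 to Slit3, Robo1 or Robo2. This gave 106 of the 45037 probe sets and 44 of the 18193 genes on the array. The study separated the small intestine of C57BL/6 embryos at E18.5, just before birth, into epithelium and mesenchyme without enzymes, by 9 hours in a cell recovery solution at 4 °C. Each RNA sample was a pool of 3 embryos. Of 6 pools per tissue, 3 were hybridised, after RT-PCR for epithelial (Vil1, Prkg2) and mesenchymal (Vim, Madcam1, Actg2) transcripts had been used to judge their purity. The data are therefore 3 epithelium and 3 mesenchyme arrays (A, B and C in each), with no treatment or mutation named in either group. With 3 pools per tissue, the p-values set each difference against a spread between pools estimated mostly over all probe sets together. That shared estimate carried 31.7 prior degrees of freedom, against 4 residual degrees of freedom from the arrays of each probe set. Very small p-values therefore do not rest on the 3 pools of a gene alone.

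Semaphorins are secreted or membrane-bound proteins that bind plexins, and the secreted class 3 semaphorins usually do so through a neuropilin that forms the ligand-binding part of the receptor. Netrins attract growing axons through Dcc and Neo1 and repel them through the Unc5 receptors, whereas Slits are secreted ligands of the Robo receptors and mostly repel. In the gut wall these systems are known from the migration of neural crest cells and the ingrowth of vagal axons, from blood and lymphatic vessel patterning, and from contacts between epithelial cells. The mesenchyme fraction holds smooth muscle, fibroblasts, vessels, neurons and blood cells together, so a lower level can stem from fewer cells of a type or from less RNA per cell, and these cannot be told apart here.

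Most of the guidance genes that differed between the tissues were higher in the mesenchyme. Levels are log2 values, a difference is the epithelium mean minus the mesenchyme mean, and a gene was called where the difference reached 1 (a doubling) in size and the adjusted p was below 0.05 (limma with Benjamini-Hochberg adjustment over all genes). Where a gene has several probe sets, the one with the highest mean level over the 6 arrays stands for it. By this rule 23 of 44 genes (52.3%) were called, against 24.1% of all genes. Of these, 19 were higher in the mesenchyme, a direction called for 15.9% of all genes, and 4 were higher in the epithelium, a direction called for 8.2%. The median difference was -0.65 over the 44 genes and -0.17 over all genes. The 3 epithelium arrays and the 3 mesenchyme arrays did not overlap for 30 of the 44 genes, compared with 46.5% of all genes.

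Counted by probe set the picture was similar, with 45 of 106 called higher in the mesenchyme and 7 higher in the epithelium. The background was 15.5% and 5.98% of all probe sets in those directions and 21.5% in either. The arrays of the tissues did not overlap for 76 of the 106 probe sets, compared with 41.7% of all. The 44 genes lie near the centre of the distribution of all genes as well as in both tails, and the neuropilins, Ntn1, Plxnd1, Sema5a and Sema3d lie in its lower tail.

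**Figure D1:**
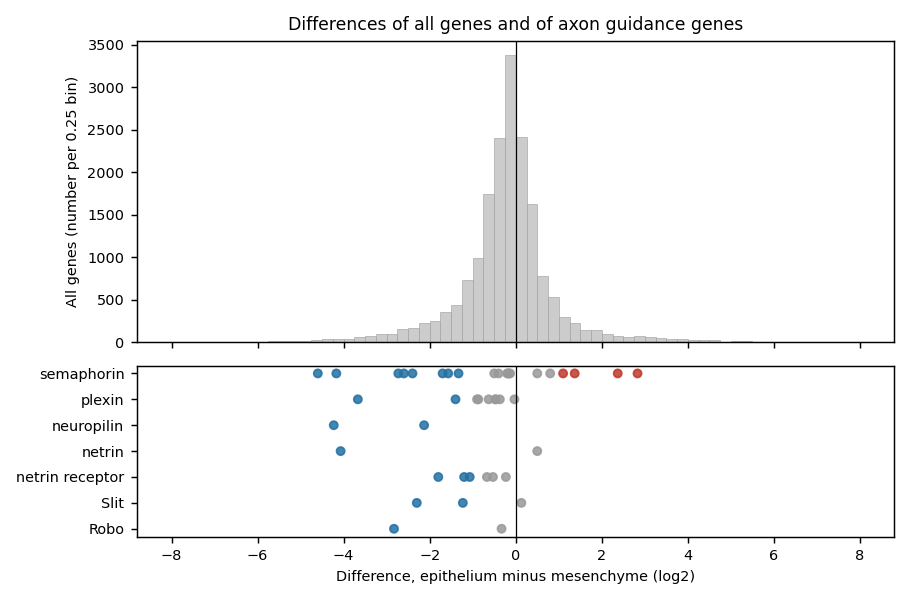
Upper panel, number of genes (of 18193) in each bin of the difference, epithelium minus mesenchyme, on the log2 scale. Lower panel, the 44 guidance genes by role, 1 point per gene, blue where called higher in the mesenchyme (19 genes), red where called higher in the epithelium (4 genes, all semaphorins) and grey where not called.

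The direction split depends on how arrays are scaled to each other, and this touches every count here. Of the called genes, 82.6% of the guidance genes and 66.0% of all genes were higher in the mesenchyme. Setting the arrays to equal medians moved the median of all genes by 0.30 and the split to 76.2% of called guidance genes and 49.4% of all called genes. Quantile normalization moved the median by 0.27, to 77.3% and 53.0%. Setting them to equal spike-in controls moved the median by -0.26, to 87.5% and 77.4%. No called guidance gene changed direction under any of these settings.

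Across the whole data set, the median level per array lay between 8.1 and 8.7 and arrays of the same tissue correlated at 0.978 to 0.984 over probe sets, against 0.773 to 0.813 between tissues. All 7 epithelial markers were called higher in the epithelium (mean level of the list 13.04 to 13.50 against 8.64 to 9.36), and all 6 smooth muscle and all 5 fibroblast markers higher in the mesenchyme (8.22 to 8.65 against 13.80 to 13.90, and 7.16 to 7.52 against 13.64 to 13.82). Vil1 and Actg2, on these lists, had also served in the RT-PCR that judged the purity of the pools, so they are no independent check. Spike-in controls averaged 10.56 to 10.77 on 5 arrays and 9.80 on mesenchyme array B. Results with spike-in scaling therefore lean on mesenchyme array B, the array that this setting shifted most. Epithelium array B was the highest of its tissue for 69 of the 106 guidance probe sets, and epithelium array A the lowest for 60. The median levels of these arrays over all probe sets were 8.6 and 8.1.

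Among the class 3 semaphorins, the secreted ligands, 5 of 7 genes were called higher in the mesenchyme by their representative probe sets, and the other 2 were not called. That direction was called for 15.9% of all genes. Sema3d had levels of 5.4, 5.5 and 5.4 on the epithelium arrays and 9.8, 9.5 and 9.5 on the mesenchyme arrays. The tissues were far apart, and the epithelium was not above the background. The background is taken here as the bacterial control probe sets, whose targets mouse RNA lacks and whose mean per array was 5.87 to 6.25. Where the mean of a tissue did not exceed 6.25, as for the epithelium in 10 of the 52 called probe sets, the fold is a lower bound, set against the control mean of each array wherever that was the higher value. The measured Sema3d difference was -4.17 ± 0.23 (SE, n = 3 per tissue; at least 12.1-fold lower in the epithelium; limma adjusted p = 6.48e-18), and the other Sema3d probe set differed by -1.33. Sema3c, a ligand known from neural crest and outflow tract development, was at 7.3, 8.4 and 7.4 in the epithelium against 10.7, 10.3 and 10.3 in the mesenchyme. Epithelium array B stood at least 1 unit above the other epithelium arrays, which gave Sema3c the widest spread of the set (SD 0.61), and the tissues still did not overlap. The difference was -2.73 ± 0.26 (SE, n = 3; limma adjusted p = 1.87e-11).

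Sema3g, a ligand known from vessels, differed by -2.40 (5.28-fold), Sema3e, the ligand that binds Plxnd1 without a neuropilin, by -1.70, and Sema3a, the prototype repellent, by -1.33. A further Sema3e probe set read 5.1, 5.0 and 5.2 in the epithelium against 8.9, 8.5 and 8.6 in the mesenchyme, a measured difference of -3.57 (at least 6.32-fold, since the epithelium was not above the background). Sema3b and Sema3f were not called by their representative probe sets (0.80 and -0.13), and their other probe sets are taken up further on.

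Sema3d and Sema3a are neighbours with no protein-coding gene between them in the RefSeq annotation, Sema3e follows 3 genes later and Sema3c 15 genes after that, all on chromosome 5. All 4 were higher in the mesenchyme, and their promoters are printed to show how far these neighbours, which share a direction, differ in sequence. The promoters of Sema4g and Sema7a, called higher in the epithelium, are set beside them. Sequences are RefSeq, GRCm38.p6, from 250 bases before to 50 after the annotated start, 5′ to 3′ on the gene's strand (the plus strand for all 6), with CG dinucleotides in capitals. Sema3d is at chr5:12382916-12383215, Sema3a at chr5:13396534-13396833, Sema3e at chr5:14025026-14025325, Sema3c at chr5:17574566-17574865, Sema4g at chr19:44989094-44989393 and Sema7a at chr9:57939862-57940161.
Sema3d: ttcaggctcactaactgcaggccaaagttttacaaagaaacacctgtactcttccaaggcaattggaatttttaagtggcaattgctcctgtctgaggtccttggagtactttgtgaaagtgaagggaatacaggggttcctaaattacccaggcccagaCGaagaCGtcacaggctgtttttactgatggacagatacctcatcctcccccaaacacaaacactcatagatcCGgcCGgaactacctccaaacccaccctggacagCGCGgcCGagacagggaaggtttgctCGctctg
Sema3a: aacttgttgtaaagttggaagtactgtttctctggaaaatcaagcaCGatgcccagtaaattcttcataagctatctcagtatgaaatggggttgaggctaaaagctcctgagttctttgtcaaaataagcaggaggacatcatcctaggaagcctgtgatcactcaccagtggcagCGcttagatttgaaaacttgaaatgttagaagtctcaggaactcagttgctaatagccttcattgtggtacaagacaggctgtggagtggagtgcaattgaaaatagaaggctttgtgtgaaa
Sema3e: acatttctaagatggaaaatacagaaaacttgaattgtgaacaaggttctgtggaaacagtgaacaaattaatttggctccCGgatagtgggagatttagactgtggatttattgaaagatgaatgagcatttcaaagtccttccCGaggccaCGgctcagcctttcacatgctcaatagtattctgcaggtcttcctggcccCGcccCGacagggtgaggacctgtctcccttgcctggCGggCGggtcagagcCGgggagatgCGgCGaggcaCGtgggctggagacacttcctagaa
Sema3c: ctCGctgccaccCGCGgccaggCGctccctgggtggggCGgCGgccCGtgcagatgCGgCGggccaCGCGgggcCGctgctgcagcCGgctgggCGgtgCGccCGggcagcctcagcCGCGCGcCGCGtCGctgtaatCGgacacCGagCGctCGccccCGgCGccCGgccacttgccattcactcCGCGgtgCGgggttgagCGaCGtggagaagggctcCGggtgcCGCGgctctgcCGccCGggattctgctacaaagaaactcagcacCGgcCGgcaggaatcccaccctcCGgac
Sema4g: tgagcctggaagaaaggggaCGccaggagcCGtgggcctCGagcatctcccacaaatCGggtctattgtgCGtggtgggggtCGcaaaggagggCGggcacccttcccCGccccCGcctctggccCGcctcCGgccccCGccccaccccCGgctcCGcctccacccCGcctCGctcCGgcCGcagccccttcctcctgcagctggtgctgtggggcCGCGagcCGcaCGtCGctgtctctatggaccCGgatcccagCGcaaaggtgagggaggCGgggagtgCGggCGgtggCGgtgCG
Sema7a: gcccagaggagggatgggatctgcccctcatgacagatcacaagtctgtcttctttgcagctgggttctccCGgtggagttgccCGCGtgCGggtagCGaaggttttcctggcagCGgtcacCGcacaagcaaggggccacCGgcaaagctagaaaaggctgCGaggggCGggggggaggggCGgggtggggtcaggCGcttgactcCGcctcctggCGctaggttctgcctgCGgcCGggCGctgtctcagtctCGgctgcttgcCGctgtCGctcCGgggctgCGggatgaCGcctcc

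The 4 neighbours ranged from 2 CG dinucleotides in 300 bases for Sema3a, through 8 for Sema3d and 11 for Sema3e, to 42 for Sema3c. Sema4g had 30 and Sema7a 23. The GC content of these 6 promoters ran from 41.3% (Sema3a) to 75.7% (Sema3c). Over the 48 promoters matched to 35 of the 44 genes its median was 64.5%, compared with 52.7% over all 32851 promoters of the table. The median was 63.5% for genes called higher in the epithelium (8 promoters), 65.0% for those higher in the mesenchyme (23) and 63.7% for those not called (17). These are descriptions of the windows and say nothing about the factors that bind there. Dcc, Slit1, Sema3f, Sema3b, Unc5d, Plxna4, Sema6a, Ntn1 and Plxna1 were not matched.

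The class 4 semaphorins, membrane-bound proteins best known from immune and epithelial cells, divided between the tissues. Sema4a, Sema4b and Sema4g were higher in the epithelium and Sema4c and Sema4d in the mesenchyme. Sema4a was at 11.4, 11.9 and 11.7 in the epithelium against 8.9, 8.7 and 8.9 in the mesenchyme. No mesenchyme array came within 2 units of an epithelium array, and the difference was 2.83 ± 0.23 (SE, n = 3; 7.13-fold; limma adjusted p = 4.15e-13). Its other probe set, at 11.5, 12.4 and 11.9 against 7.1, 6.5 and 6.7, differed by 5.17 (35.9-fold) in the same direction. That probe set ends in _x_at, so its probes may be shared with other sequences.

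Sema4g read 11.3, 12.0 and 11.6 in the epithelium against 9.0, 9.4 and 9.4 in the mesenchyme, again without overlap, a difference of 2.37 ± 0.24 (SE, n = 3; limma adjusted p = 1.03e-10). Sema4b read 8.8, 9.4 and 9.4 against 8.3, 7.8 and 8.2. Its nearest arrays were at 8.8 and 8.3, the difference was 1.10 ± 0.24 (SE, n = 3; limma adjusted p = 0.000229), and its other probe set differed by 0.13. The Sema4b call was lost with spike-in scaling (0.84) and without mesenchyme array B (0.95).

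Sema4c, a ligand of Plxnb2, was at 7.7, 7.9 and 7.5 in the epithelium against 10.5, 10.4 and 10.0 in the mesenchyme. The tissues lay over 2 units apart on all arrays, with a difference of -2.60 ± 0.23 (SE, n = 3; 6.06-fold; limma adjusted p = 5.36e-12). Sema4d, the ligand of Plxnb1, differed by -1.57, but its other probe sets differed by -0.27 and 0.23. Macrophage markers, of which 4 of 6 were called higher in the mesenchyme, had mean levels of 8.63 to 9.12 in the epithelium against 11.22 to 11.42 in the mesenchyme, and their part in the Sema4d value was not tested.

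Sema5a, a transmembrane semaphorin with thrombospondin repeats, had the largest measured difference of the 44 genes by their representative probe sets. Its order against Sema3d is not settled, because for both genes the epithelium level was not above the background. The lower bound for Sema5a, 4.59, exceeded the sizes for Nrp1 (4.23) and Ntn1 (4.07), each with an SE of 0.23. The genes were not tested against each other, and with these SEs the order is one of measured values only. A further Nrp1 probe set differed by -6.60, so the order applies to the representative probe sets only. Sema5a was at 5.9, 6.4 and 6.1 in the epithelium against 11, 10.6 and 10.6 in the mesenchyme. The tissues lay over 4 units apart, and the difference was -4.60 ± 0.23 (SE, n = 3; at least 24.1-fold; limma adjusted p = 9.82e-19). Its further probe sets differed by -3.40, -1.47 and 0.10. Sema5b, its closest relative, was not called (-0.40, limma adjusted p = 0.202).

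Sema7a, the semaphorin with a lipid anchor, which signals through integrins and Plxnc1, was at 10.5, 10.9 and 10.8 in the epithelium against 9.3, 9.4 and 9.4 in the mesenchyme. All epithelium arrays were higher, by 1.37 ± 0.23 (SE, n = 3; limma adjusted p = 4.33e-06), while its second probe set differed by 0.43. The mean of both was 0.90, short of a call. Its receptor Plxnc1 went the other way, as given with the plexins.

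None of the 4 class 6 semaphorins was called, on any of 11 probe sets. Sema6a differed by -0.50, Sema6b by 0.50, Sema6c by -0.20 and Sema6d by -0.17, and the tissues overlapped for all 4. The probe sets of Sema6a disagreed in sign, and those not representing the gene differed by 0.83 and 0.97 with adjusted p of 0.00361 and 0.0012 (limma, over probe sets), short of the size required. Class 6 members bind class A plexins directly, and no class A plexin was called either.

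**Figure D2:**
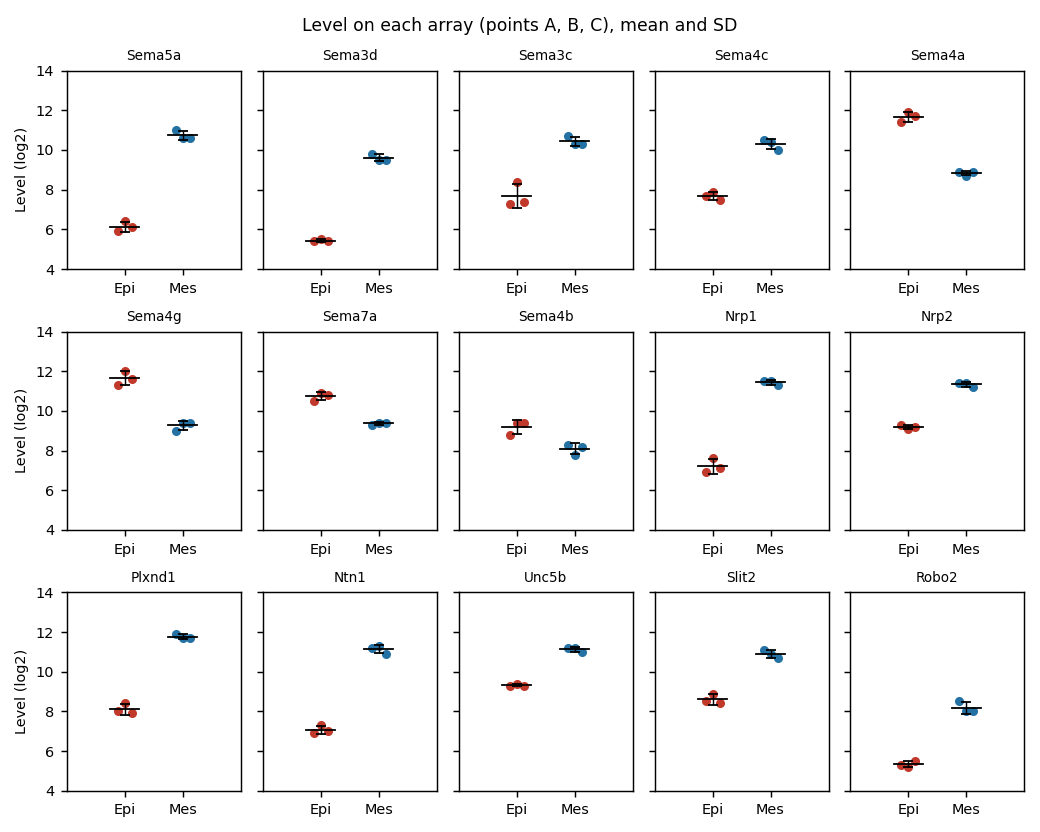
Log2 level on each array for 15 guidance genes, with epithelium (Epi) in red and mesenchyme (Mes) in blue; points are arrays A, B and C from left to right, the long bar is the mean and the error bar the SD. The tissues do not overlap in any panel, and only Sema4a, Sema4g, Sema7a and Sema4b are higher in the epithelium. Heights can be compared within a panel but not between panels, since each probe set has its own response.

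Both neuropilins, the co-receptors of class 3 semaphorins and of VEGF, were higher in the mesenchyme on all 8 of their probe sets. Nrp1 was at 6.9, 7.6 and 7.1 in the epithelium against 11.5, 11.5 and 11.3 in the mesenchyme. The mesenchyme arrays were within 0.2 of each other, and the difference was -4.23 ± 0.23 (SE, n = 3; 18.8-fold; limma adjusted p = 1.18e-17). The other Nrp1 probe sets differed by -6.60, -3.50 and -2.97, and for the first of these, whose epithelium mean of 5.9 was not above the background, the fold was at least 88.0.

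Nrp2 was at 9.3, 9.1 and 9.2 in the epithelium against 11.4, 11.4 and 11.2 in the mesenchyme, with no overlap and little spread in either tissue. The difference was -2.13 ± 0.22 (SE, n = 3; limma adjusted p = 3.47e-10), and its other probe sets differed by -4.00, -2.17 and -1.60. Thus every probe set of either gene gave a fold of at least 3.03.

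Of the 9 plexins, the signalling receptors, Plxnd1 and Plxnc1 were higher in the mesenchyme and 7 were not called, so the share called, 22.2%, was near the 24.1% of all genes. Plxnd1, known for its role in vessels, was at 8.0, 8.4 and 7.9 in the epithelium against 11.9, 11.7 and 11.7 in the mesenchyme. The tissues were over 3 units apart and the difference was -3.67 ± 0.23 (SE, n = 3; 12.7-fold; limma adjusted p = 3.87e-16). Blood and lymphatic endothelial markers, with 7 of 8 called higher in the mesenchyme, had mean levels of 7.40 to 7.92 in the epithelium against 10.90 to 11.09 in the mesenchyme, beside the values of Plxnd1, Nrp1, Nrp2 and Sema3g. Their part in these differences was not tested.

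Plxnc1 was at 8.5, 8.4 and 8.4 in the epithelium against 9.7, 9.9 and 9.9 in the mesenchyme, apart on every array. It differed by -1.40 ± 0.22 (SE, n = 3; limma adjusted p = 2.35e-06), and its 6 probe sets ranged from -1.70 to 0.07, with 3 called. Averaging them gave -0.97 and lost the call. That average includes the probe set at 0.07, on which neither tissue was above the background.

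The remaining plexins had differences of -0.90 (Plxna2), -0.87 (Plxna1), -0.63 (Plxnb1), -0.47 (Plxna4 and Plxnb2), -0.37 (Plxna3) and -0.03 (Plxnb3). Plxna1, Plxna2 and Plxnb1 had adjusted p of 0.00228, 0.00239 and 0.0235 (limma) and missed the call on size. Plxna1 and Plxna2 passed it with spike-in scaling, at -1.13 and -1.16, and Plxna2 also without epithelium array C, at -1.10. Plxnb2, the receptor of Sema4c, had 10.8, 11.3 and 11.5 in the epithelium against 11.8, 11.6 and 11.6 in the mesenchyme, tissues separated by 0.1. By their representative probe sets, the plexins and their ligands did not share one pattern of calls. Plxnd1 and Sema3e were both higher in the mesenchyme, and Sema7a and Plxnc1 in opposite tissues. Sema4c and Sema4d were higher in the mesenchyme, while their receptors Plxnb2 and Plxnb1 were not called, with differences of the same sign (-0.47 and -0.63). Another Plxnb1 probe set was called higher in the mesenchyme, as given further on.

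Ntn1, the prototype netrin, was higher in the mesenchyme. Its levels were 6.9, 7.3 and 7.0 in the epithelium against 11.2, 11.3 and 10.9 in the mesenchyme. All mesenchyme arrays were over 3 units above the epithelium, by -4.07 ± 0.23 as epithelium minus mesenchyme (SE, n = 3; 16.8-fold; limma adjusted p = 2.13e-17), and its second probe set differed by -1.17. Ntn4, a basement membrane netrin, was not called (0.50, limma adjusted p = 0.0920), its arrays overlapped, and its second probe set differed by -0.80.

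Among the netrin receptors, 3 of 6 were higher in the mesenchyme, a direction called for 15.9% of all genes. Unc5b, a repulsive receptor also known from endothelium, was at 9.3, 9.4 and 9.3 in the epithelium against 11.2, 11.2 and 11 in the mesenchyme. Its spread was among the smallest of the set, and the difference was -1.80 ± 0.22 (SE, n = 3; 3.48-fold; limma adjusted p = 1.61e-08).

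Neo1, which also binds the repulsive guidance molecules, was at 9.8, 10.2 and 9.7 in the epithelium against 11, 11.1 and 11.2 in the mesenchyme, without overlap. It differed by -1.20 ± 0.23 (SE, n = 3; limma adjusted p = 4.16e-05), and its further probe sets by -2.43, -2.27, -0.83 and 0.47. The first of these ends in _s_at and the last in _x_at, suffixes that mark probes shared with other transcripts or sequences. Unc5c was at 9.1, 9.4 and 9.4 in the epithelium against 10.3, 10.4 and 10.4 in the mesenchyme, apart on every array, with a difference of -1.07 ± 0.23 (SE, n = 3; limma adjusted p = 0.00017). Neo1 lost its call with equal medians (-0.90), and Unc5c with equal medians (-0.77), with quantile normalization (-0.78) and without epithelium array A (-0.97).

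Unc5d, Unc5a and Dcc were not called (-0.67, -0.53 and -0.23). On the only Unc5d probe set the epithelium, with a mean of 6.07, was not above the background, and the mesenchyme mean was 6.73. The Unc5d fold is therefore a lower bound (at least 1.52), and its limma adjusted p was 0.0208. Dcc, the main attractive receptor, had overlapping tissues, with 8.8, 9.1 and 9.6 in the epithelium against 9.2, 9.3 and 9.7 in the mesenchyme. Its other probe sets differed by -0.07 and -0.03, but neither tissue was above the background on them, so they say little about Dcc. Enteric neuron markers, of which 5 of 6 measured were called higher in the mesenchyme, had mean levels of 7.05 to 7.35 in the epithelium against 10.70 to 10.80 in the mesenchyme.

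Of the Slits, Slit2 and Slit3 were higher in the mesenchyme and Slit1 was not called. Slit2 was at 8.5, 8.9 and 8.4 in the epithelium against 11.1, 10.9 and 10.7 in the mesenchyme. No arrays overlapped, the difference was -2.30 ± 0.23 (SE, n = 3; 4.92-fold; limma adjusted p = 1.19e-10), and its other probe sets differed by -2.90 and -1.17. Slit3 was at 8.1, 8.6 and 8.4 in the epithelium against 9.7, 9.5 and 9.6 in the mesenchyme, a difference of -1.23 ± 0.23 (SE, n = 3; limma adjusted p = 2.67e-05), again without overlap. Its call was lost with equal medians (-0.93) and quantile normalization (-0.92). Slit1, known chiefly from the nervous system, differed by 0.13.

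Robo2, a Slit receptor, was at 5.3, 5.2 and 5.5 in the epithelium against 8.5, 8.0 and 8.0 in the mesenchyme. The epithelium arrays were not above the background, and the measured difference was -2.83 ± 0.23 (SE, n = 3; at least 4.47-fold; limma adjusted p = 5.50e-13). Robo1, its direct neighbour on chromosome 16 with no protein-coding gene between, was not called by its representative probe set (-0.33, limma adjusted p = 0.309).

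**Figure D3:**
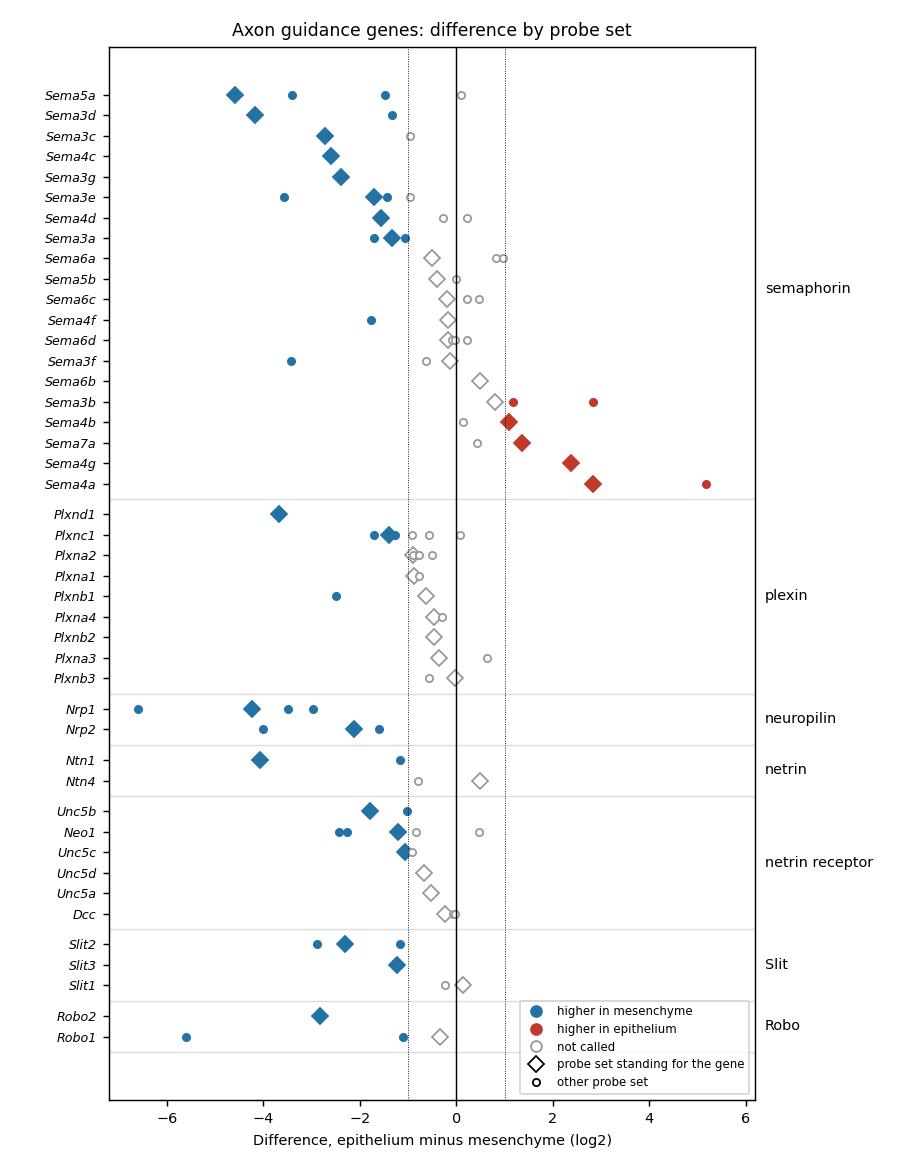
Difference, epithelium minus mesenchyme, in log2 units for all 106 probe sets, 1 row per gene, grouped by role; filled blue points are called higher in the mesenchyme (45), filled red points higher in the epithelium (7) and open points are not called. Diamonds are the probe set that stands for the gene, and dotted lines mark a difference of 1 in either direction. No gene has filled points of both colours.

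Probe sets of one gene often differed in size. Of the 34 genes with more than 1 probe set, 8 had all of them called, 14 some, 12 none, and no gene had calls in opposite directions. Counting a gene if any of its probe sets was called gave 28 of 44 genes, 23 in the mesenchyme and 5 in the epithelium. The same count covered 31.1% of all genes, with 21.7% in the mesenchyme and 9.61% in the epithelium. The 5 genes this adds, Robo1, Sema3f, Plxnb1, Sema4f and Sema3b, were singled out after their values were seen.

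Robo1 had the widest gap between probe sets. Probe set 1427231_at read 5.1, 5.0 and 5.3 in the epithelium against 11.1, 10.6 and 10.5 in the mesenchyme. The tissues were over 5 units apart, with the epithelium not above the background and a measured difference of -5.60 ± 0.23 (SE, n = 3; at least 26.5-fold; limma adjusted p over probe sets = 5.16e-21). The second, 1457407_at, differed by -1.10, and the representative, 1445549_at, read 7.4, 8.4 and 8.0 against 8.3, 8.0 and 8.5, where the tissues overlapped. Both 1427231_at and 1457407_at were called higher in the mesenchyme, the direction of its neighbour Robo2, and the representative differed by -0.33 without a call.

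Sema3f, a ligand of Nrp2, read 6.7, 6.7 and 6.8 in the epithelium against 10.1, 10.4 and 10.0 in the mesenchyme on probe set 1425840_a_at. That is a difference of -3.43 ± 0.23 (SE, n = 3; 10.8-fold; limma adjusted p over probe sets = 2.04e-15) with no overlap, whereas the other probe sets differed by -0.63 and -0.13. The last, an _x_at probe set, lay between 11.6 and 11.9 on all arrays. Sema3b, separated from Sema3f by 3 protein-coding genes, went the other way. Its probe set 1448415_a_at read 10.4, 11 and 10.9 in the epithelium against 8.0, 7.9 and 7.9 in the mesenchyme, apart by over 2 units, a difference of 2.83 ± 0.23 (SE, n = 3; limma adjusted p over probe sets = 7.05e-13). Its other probe sets differed by 1.17 and 0.80, so all 3 had the same sign, and the representative passed the size required with quantile normalization (1.09) and equal medians (1.10).

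Plxnb1 differed by -2.50 on probe set 1435254_at (6.4, 7.0 and 6.9 against 9.4, 9.2 and 9.2) and by -0.63 on its representative. The former separated the tissues by over 2 units and the latter by less than 1. Sema4f differed by -1.77 on the _x_at probe set 1439768_x_at (6.0, 6.6 and 6.4 against 8.1, 8.0 and 8.2), where the tissues did not overlap. On its representative it differed by -0.17, and the tissues overlapped. Which transcripts of these genes each probe set reads is not given in the sources used here.

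**Figure D4:**
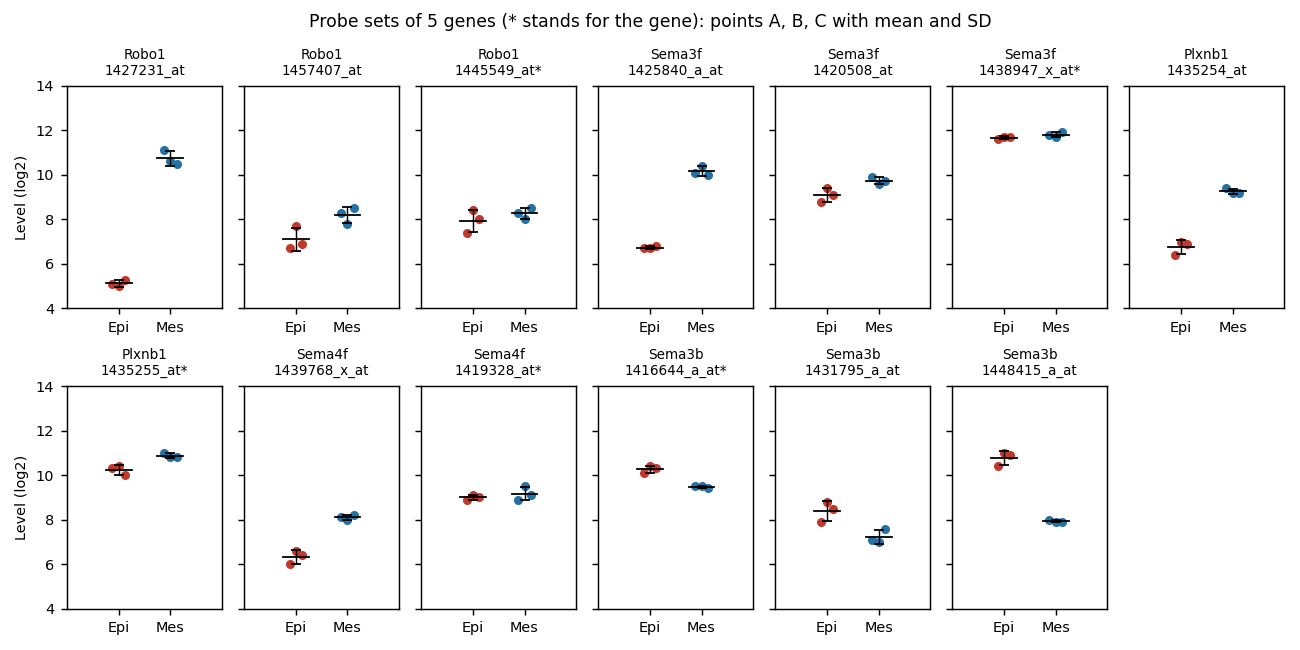
Log2 level on each array for the 13 probe sets of Robo1, Sema3f, Plxnb1, Sema4f and Sema3b, with the probe set that stands for the gene starred; epithelium (Epi) in red, mesenchyme (Mes) in blue, points are arrays A, B and C, with mean and SD. For each gene at least 1 probe set separates the tissues by more than 1 unit between means, and the starred one does not.

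The genes that carry these signals inside the cell, or act beside the receptors, were counted in 4 lists, to be read against the 24.1% of all genes called, 15.9% in the mesenchyme and 8.2% in the epithelium. Of the 22 measured semaphorin and plexin transducers, 8 (36.4%) were higher in the mesenchyme, with no epithelial call (median -0.74, all genes -0.17). Dpysl3 and Crmp1, members of the collapsin response mediator family, differed by -4.47 and -2.33, and Tiam1, an exchange factor for Rac, by -2.47. Among 16 co-receptors and other partners of semaphorins, plexins and neuropilins, 6 (37.5%) were mesenchymal by the same call and 0 epithelial (median -0.65). The number called in either direction rose to 8 with quantile normalization and 9 with equal medians, settings that move differences toward the epithelium. Nearest to a call in the main fit were Mst1r (0.87) and Met (0.83), higher in the epithelium, then Trem2 (-0.73). The count of 0 epithelial calls thus holds for the values as deposited. The 6 mesenchymal genes include Itga1 (-4.47), the collagen-binding integrin subunit that partners Sema7a, Flt4 (-2.97), the lymphatic VEGF receptor, and Tyrobp (-2.87), a signalling adaptor of myeloid cells.

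Of 15 other measured netrin, Slit and repulsive guidance ligands, receptors and partners, 6 (40.0%) were higher in the mesenchyme and 1 in the epithelium (median -0.50). Rgma and Rgmb, ligands of Neo1, differed by -3.07 and -2.90, and Robo4, the endothelial Robo, by -2.90. Flrt3, a membrane protein that binds Unc5 and Robo receptors, was the epithelial one, at 9.5, 10.1 and 9.9 against 8.6, 8.1 and 8.3. Its tissues did not overlap, and the difference was 1.5 ± 0.24 (SE, n = 3; limma adjusted p = 1.65e-06). Of 20 measured netrin and Slit transducers, 6 were mesenchymal by the same call and 0 epithelial (median -0.64), and this share called, 30.0%, was not far from that of all genes. Srgap1 and Srgap3, which act below Robo receptors, differed by -3.20 and -2.00, and Enah, an actin regulator, by -2.33. Rhod, Adora2b, Pak1 and Ptk2 were on these lists and not analysed here.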

How the data were processed

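RNA from pooled epithelium and mesenchyme was measured on 6 Affymetrix whole-genome mouse arrays. The deposited values are log2 levels computed with RMA, per the submitters' processing notes (version not given in the sources used here), and are rounded to 0.1. They were used as deposited. Of 45101 probe sets, 64 controls were left out. One limma (3.58.1, R 4.3.3) fit compared the tissues over 45037 probe sets, with 4 residual and 31.7 prior degrees of freedom. Gene symbols came from the platform annotation: 34945 probe sets had 1 symbol, 932 several and 9160 none, and only those with 1 entered the 18193 genes. Gene values are those of the probe set with the highest mean, adjusted over genes by the Benjamini-Hochberg method, and probe set values were adjusted over probe sets. A call needed an adjusted p below 0.05 and a difference of at least 1.

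The named genes were, within each role, up to 4 called genes per direction by size, every called gene of the rarer direction, and up to 3 per pathway list and direction; all other members were given by value. The members, lists and alternatives were chosen with earlier results of these data known. The letters A to C are not stated to pair the tissues: deviations from the tissue means correlated at -0.31, -0.15 and 0.12 within letters. The script was tested on simulated data. Promoters came from the RefSeq table for GRCm38.p6. Array number limits the precision. The rule for background and lower bounds was set after the values were seen. Alternatives covered the scaling, the filter on dim probe sets, the fit, the threshold, the choice of probe set, and each array left out.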

Additional observations from a re-analysis of the deposited data

How the results depend on the processing

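The call required a difference of at least 1, so differences as small as those of the class 6 semaphorins could not pass it at any p. There were 3 arrays per tissue, with values rounded to 0.1. Of the 44 genes, 30 kept the same status, called or not called, under every alternative in which they were measured. Of the 23 called genes, Neo1, Plxnc1, Sema4b, Sema4d, Sema7a, Slit3 and Unc5c lost the call under at least 1 alternative. Robo2 and Unc5d were not measured where dim probe sets were left out. Of 702 combinations of a gene and an alternative, 12 lost the call, 16 gained it and 0 reversed. The number of called guidance genes ranged from 21 (equal medians) to 28 (adjusted p alone), and from 22 to 24 when 1 array was left out. With the letter as a replicate block it was 23, with 23 shared, and no count over a list moved by over 1.5 times. Whether the letters pair the tissues is not stated, and so few arrays cannot decide it. By deviations from the tissue means, 1 of 3 epithelium arrays correlated best with the mesenchyme array of its own letter. Taking the adjusted p alone gave 11 guidance probe sets higher in the epithelium, where 7 were called. It also gave 16 semaphorin and plexin transducers, 13 co-receptors and partners, and 10 netrin and Slit transducers, the last also being 10 with spike-in scaling. Averaging the probe sets of a gene left 23 genes called, 19 of them shared: it removed Sema4b (0.62), Sema4d (-0.53), Sema7a (0.90) and Plxnc1 (-0.97) and added Robo1 (-2.34), Sema3f (-1.40), Sema3b (1.60) and Plxnb1 (-1.57). Taking the probe set with the highest mean in either tissue, an alternative chosen after seeing the data, gave 25 genes, with Robo1 (-5.60) and Sema3b (2.83) added. Apart from the changed choice of probe set, the causes were not tested.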
